A study of Mus musculus with 24 samples.

Results

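Microglia, the resident macrophages of the brain, were followed here through 10 genes known as enriched in them beside the purinergic receptors: Tmem119, Sall1, Fcrls, Gpr34, Sparc, Golm1, Adgrg1, Bhlhe41, Crybb1 and Upk1b. The genes were listed by name from what is known of microglia, and each was read from its single-gene probeset, a set of probes summarised to 1 value. All 10 were measured, each by exactly 1 probeset, among 18820 genes tested in the series. The series profiled 24 mouse samples, 3 for each of 8 cell types, on Affymetrix Mouse Gene 1.0 ST arrays.

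Microglia arise from early progenitors outside the brain and then settle in it, where signals of the tissue, transforming growth factor beta among them, are known to keep their identity. Sall1 is a transcription factor that holds this identity in place, and its absence from other adult macrophages made it a marker of the cell type. Tmem119 and Fcrls are surface proteins used to tell microglia from macrophages that enter the brain from blood, and Gpr34 is a receptor for a lysophospholipid. Several of the other genes have well-known roles elsewhere, in matrix, neural progenitors, lens or bladder.

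The groups were induced pluripotent stem cells (iPSC), microglia derived from them and collected by green fluorescence (iPS-MG), microglia of neonatal mice at postnatal day 5 (neo-MG) and microglia of adult mice (ad-MG). These 4 groups were of strain C57BL/6NCr with the Cx3cr1gfp/+ genotype, in which 1 copy of the fractalkine receptor gene is replaced by gfp. Peritoneal macrophages (p-Mac), macrophages of bone marrow (bm-Mac) and dendritic cells (DC) came from adult C57BL/6NCr mice, and neural stem cells (NSC) from embryos of that strain at embryonic days 15 to 18. None of these last 4 groups carried gfp, so the genotype and the cell type cannot be told apart between microglia and the other cells. The label adult also stands on iPSC and iPS-MG. The stem cells grew on inactivated mouse embryonic fibroblasts with leukaemia inhibitory factor. Cells called gMG in the culture protocol, a name left undefined there, were given the growth factors GM-CSF, M-CSF and IL-3, and every other culture was kept in serum medium. Whether the 3 samples of a group were separate animals or cultures is not stated, so p-values here reflect only how these arrays varied within a group, which may be technical spread.

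Values are on a log2 scale, so that a difference of 1 is 2-fold. Array medians over all probesets lay between 7.96 and 8.21, and replicate arrays correlated at 0.995 to 0.999 across the genes tested. A summed list of 14 genes shared by myeloid cells had mean levels of 12.30 to 12.84 in the 6 myeloid groups, 8.01 in iPSC and 7.14 in NSC. The DC arrays were high in Itgax at 13.19, yet Flt3, a receptor that defines classical dendritic cells, was at 7.07, and Gata6, a factor of peritoneal macrophages, was at 10.10 in DC beside 11.55 in p-Mac. A gene was called higher or lower at a limma adjusted p under 0.05, with Benjamini-Hochberg adjustment over 18820 genes, and a difference of at least 2-fold. Replicates were so close that every gene past 2-fold also passed the p, in each of the 14 comparisons. The fold therefore set all calls. In these bulk samples fewer cells of a type and less RNA per cell cannot be told apart. No detection calls were used, so no level could be called absent, and levels are compared only within a gene.

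**Figure D1:**
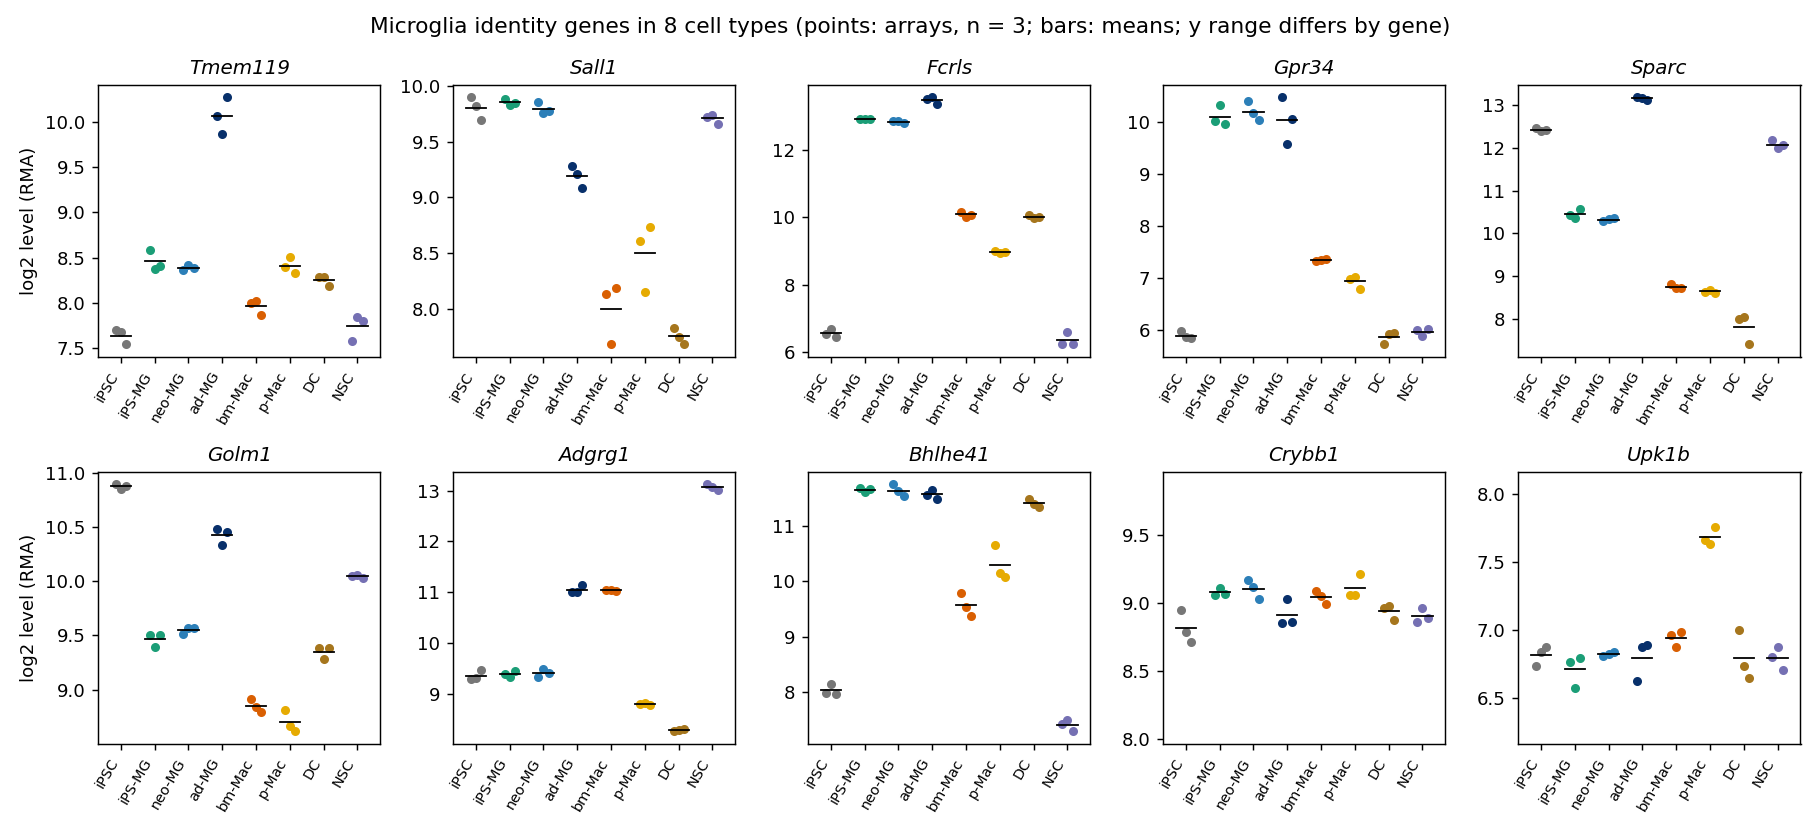
Log2 level of each of the 10 genes (1 panel each) on every array, by cell type, with points for the 3 arrays a bar for their mean and a y range that differs by gene. Fcrls spans 6.36 to 13.49 between group means, while Crybb1 stays between 8.82 and 9.11.

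The genes differed widely in how far their group means lay apart. The span from the lowest to the highest cell type was 7.14 for Fcrls, 5.36 for Sparc, 4.79 for Adgrg1, 4.34 for Gpr34 and 4.25 for Bhlhe41. Those 5 spans were each larger than the span of at least 95.7% of all genes tested. Spans were 2.43 for Tmem119, 2.18 for Golm1 and 2.10 for Sall1. Upk1b spanned 0.97 and Crybb1 0.29, and only 5.1% of genes spanned less than Crybb1.

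Promoter sequences, of 250 bases before to 50 after the start, were taken from RefSeq (GRCm38.p6) for 7 of the 10 genes, with 10 promoters in all. Tmem119, Gpr34 and Upk1b were not among them. Sequences are printed for Fcrls and Bhlhe41, which rose in iPS-MG over iPSC, and for Sparc, which differed most between the ages, and were chosen after the motif matches were seen. The search covered 4 motifs on both strands: GAGGAA, the core bound by PU.1; CACGTG, an E-box of the kind that Bhlhe41 and its relatives bind; TGTGGT, the RUNX motif; and CAGACA, the SMAD box. Capitals mark 1 motif per sequence, and all 3 genes lie on the minus strand and are printed in the direction of transcription. Fcrls (chr3:87263475-87263774) is shown for GAGGAA, Bhlhe41 (chr6:145865371-145865670) for CACGTG and Sparc (chr11:55420031-55420330) for the SMAD box, which reads TGTCTG on the printed strand.
Fcrls: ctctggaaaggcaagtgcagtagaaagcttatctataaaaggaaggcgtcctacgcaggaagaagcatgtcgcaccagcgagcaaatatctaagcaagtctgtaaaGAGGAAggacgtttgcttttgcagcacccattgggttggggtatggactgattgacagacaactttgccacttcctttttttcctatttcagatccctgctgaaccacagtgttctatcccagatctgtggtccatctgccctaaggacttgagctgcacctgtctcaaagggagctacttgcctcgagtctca
Bhlhe41: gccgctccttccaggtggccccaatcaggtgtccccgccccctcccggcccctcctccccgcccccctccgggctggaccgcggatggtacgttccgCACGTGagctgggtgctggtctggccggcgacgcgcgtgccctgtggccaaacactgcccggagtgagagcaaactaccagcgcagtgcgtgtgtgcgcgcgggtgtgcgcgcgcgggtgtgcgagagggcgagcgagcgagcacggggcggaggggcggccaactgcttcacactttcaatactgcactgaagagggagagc
Sparc: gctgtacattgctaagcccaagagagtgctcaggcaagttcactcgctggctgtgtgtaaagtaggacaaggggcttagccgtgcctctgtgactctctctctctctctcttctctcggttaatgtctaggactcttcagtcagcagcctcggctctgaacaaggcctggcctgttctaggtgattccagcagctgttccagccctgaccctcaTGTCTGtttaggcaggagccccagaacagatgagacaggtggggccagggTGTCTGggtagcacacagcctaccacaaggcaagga
GAGGAA was found in 28.3% of 32851 promoters of this length, CACGTG in 7.15%, CAGACA in 21% and TGTGGT in 16.8%. Counted from the start of transcription, GAGGAA began at -144 in Fcrls and CACGTG at -153 in Bhlhe41. In Sparc the SMAD box began at -36 and again at 14. Fcrls also held the RUNX motif at -41 and -18 and a SMAD box at -89, and Sparc the RUNX motif at 35. Over the 10 promoters, GAGGAA was found in 1, CACGTG in 1, TGTGGT in 2 and CAGACA in 4, the other SMAD boxes being in Adgrg1 and Crybb1. The 3 promoters of Sall1 and the promoter of Golm1 held none of the 4 motifs. A match is a run of letters, not a measured binding site.

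Sall1 encodes a zinc finger transcription factor that is also active in embryonic and neural progenitors. In neo-MG it read 9.86, 9.76 and 9.77, and in ad-MG 9.29, 9.21 and 9.08. In bm-Mac it read 8.13, 7.68 and 8.18, in p-Mac 8.61, 8.14 and 8.74, and in DC 7.83, 7.75 and 7.68. All arrays of both microglia groups lay above those of the other 3 myeloid groups, and neo-MG lay above ad-MG. Outside the myeloid cells the levels were just as high, with means of 9.80 ± 0.105 (SD, n = 3) in iPSC and 9.71 ± 0.0428 (SD, n = 3) in NSC. The iPS-MG arrays read 9.89, 9.83 and 9.84 and overlapped those of iPSC. From the top the order was iPS-MG, iPSC, neo-MG, NSC, ad-MG, p-Mac, bm-Mac and DC, in which iPS-MG with iPSC, iPSC with neo-MG, p-Mac with bm-Mac and bm-Mac with DC overlapped as neighbours.

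Bhlhe41, a basic helix-loop-helix repressor known from the circadian clock and from tissue macrophages, was at a like level in all 3 microglia groups and in DC. The arrays read 11.68, 11.61 and 11.67 in iPS-MG, 11.75, 11.62 and 11.53 in neo-MG and 11.56, 11.65 and 11.49 in ad-MG. In DC they read 11.49, 11.40 and 11.33. The DC arrays were just below the microglia arrays, without overlap with ad-MG. In p-Mac the values were 10.66, 10.15 and 10.07 and in bm-Mac 9.79, 9.54 and 9.37, with iPSC at 8.03 and NSC at 7.40 lowest. Replicate 1 was the highest in both macrophage groups.

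Fcrls is a scavenger-type Fc receptor-like protein of mouse microglia. Its 3 arrays read 12.92, 12.94 and 12.93 in iPS-MG, 12.86, 12.88 and 12.81 in neo-MG, and 13.53, 13.58 and 13.38 in ad-MG. The 9 microglia arrays lay above all others. In bm-Mac Fcrls read 10.17, 10.01 and 10.08, in DC 10.07, 9.996 and 9.999, and in p-Mac 8.996, 8.95 and 8.98. Means in iPSC and NSC were 6.56 and 6.36, and those groups overlapped, as did bm-Mac and DC.

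Gpr34, an X-linked G protein-coupled receptor for lysophosphatidylserine, was likewise highest in the microglia groups, but DC lay with the stem cells. It read 10.02, 10.33 and 9.96 in iPS-MG, 10.40, 10.17 and 10.03 in neo-MG, and 10.48, 9.58 and 10.05 in ad-MG. The 3 microglia groups overlapped. Gpr34 read 7.32, 7.35 and 7.37 in bm-Mac and 6.99, 7.03 and 6.79 in p-Mac. DC read 5.73, 5.93 and 5.94, and overlapped iPSC (mean 5.89) and NSC (mean 5.97).

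Adgrg1 encodes GPR56, an adhesion G protein-coupled receptor needed in neural progenitors and cortical development. It was highest in NSC, at 13.13, 13.06 and 13.02. In ad-MG it read 10.9998, 10.997 and 11.14, and in bm-Mac 11.04, 11.04 and 11.02, so that these groups overlapped. In neo-MG it read 9.32, 9.49 and 9.41 and in iPS-MG 9.39, 9.33 and 9.44, both overlapping iPSC at 9.28, 9.31 and 9.47. The lowest means were 8.80 in p-Mac and 8.28 in DC. In this gene ad-MG lay level with bm-Mac, and neo-MG with iPSC.

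Tmem119, a transmembrane protein widely used as a microglia marker, stood apart in ad-MG alone. There it read 10.07, 9.87 and 10.27. In neo-MG it read 8.37, 8.42 and 8.38, in iPS-MG 8.59, 8.37 and 8.41 and in p-Mac 8.40, 8.51 and 8.33, and these overlapped. DC read 8.29, 8.29 and 8.19, bm-Mac 7.997, 8.02 and 7.87, and NSC and iPSC averaged 7.74 and 7.64.

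Sparc, a secreted collagen-binding matrix protein, was highest in ad-MG at 13.19, 13.17 and 13.13. It was next highest in iPSC at 12.47, 12.40 and 12.43 and in NSC at 12.18, 12.01 and 12.07, and lower in iPS-MG at 10.44, 10.36 and 10.56 and in neo-MG at 10.29, 10.33 and 10.35. The other myeloid cells had the lowest values, with 8.81, 8.73 and 8.71 in bm-Mac, 8.63, 8.67 and 8.61 in p-Mac and 7.99, 8.04 and 7.39 in DC. No neighbours in this order overlapped. DC replicate 3 lay well below the other 2 DC arrays.

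Golm1, a Golgi membrane protein, had its highest mean in iPSC (10.87 ± 0.0222, SD, n = 3), then in ad-MG at 10.48, 10.34 and 10.45 and in NSC at 10.04, 10.06 and 10.03. Values were 9.51, 9.57 and 9.57 in neo-MG and 9.51, 9.39 and 9.50 in iPS-MG. In DC Golm1 read 9.38, 9.28 and 9.38, in bm-Mac 8.91, 8.84 and 8.79 and in p-Mac 8.81, 8.66 and 8.62. All myeloid groups other than bm-Mac and p-Mac were separate from their neighbours in this order.

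Crybb1, a lens crystallin also reported in immature microglia, had group means between 8.82 in iPSC and 9.11 in p-Mac. Upk1b, a tetraspanin of the bladder lining, was highest in p-Mac, at 7.66, 7.63 and 7.75. Its other group means lay between 6.71 and 6.94, those of all 3 microglia groups included.

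Primary microglia (the mean of neo-MG and ad-MG) were compared with the mean of bm-Mac, p-Mac and DC to ask which of the genes mark microglia among myeloid cells. Of the 10 genes, 7 were called higher and 0 lower, where 3.2% of all genes were called higher, 2.07% lower and 5.27% in either direction. The genes were chosen with earlier results of these data known, so the count describes them and does not test them as a set. Fcrls was higher by 3.48 ± 0.0409 (SE), which is 11.1-fold (limma with Benjamini-Hochberg adjustment, adjusted p = 1.39e-20). Gpr34 was higher by 3.40 ± 0.0974 (adjusted p = 9.58e-16, limma) and Sparc by 3.35 ± 0.0732 (adjusted p = 2.38e-17, limma). Sall1 was higher by 1.41, Bhlhe41 by 1.18, and Tmem119 and Golm1 by 1.02 each. Adgrg1 passed the p at a difference of 0.85, under 2-fold, and so did Upk1b at -0.33. Crybb1 differed by -0.02 (adjusted p = 0.673, limma). The median over the 10 genes was 1.10, beside -0.08 over all genes tested.

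The ad-MG arrays carried markers of other cells. Of 16 fibroblast and meninges genes, all measured, the mean level was 10.38 to 10.53 in ad-MG, against 8.0002 to 8.0205 in neo-MG and 7.38 to 7.82 over bm-Mac, p-Mac and DC. Prl, a pituitary hormone gene, read 10.74, 11.28 and 11.31 in ad-MG and had means of 5.85 to 6.44 in all other groups. It was the only one of 7 measured pituitary genes called higher in ad-MG than in bm-Mac, p-Mac or DC, and the medians of that list were -0.13, -0.35 and -0.04. In neo-MG against bm-Mac, 1 of the 16 fibroblast and meninges genes was higher, Postn (2.20), and 0 lower. Of 11 astrocyte genes 2 were higher and 0 lower there, with Gfap at 1.57, beside 2.1% and 3.12% of all genes. The part of such markers in the neo-MG differences was not tested. Without the ad-MG group, a comparison chosen after seeing the data, 5 of the 10 genes were called higher and 0 lower, where 2.83% of all genes were called higher, 2.62% lower and 5.45% either way: Fcrls (3.16), Gpr34 (3.48), Sparc (1.92), Sall1 (1.72) and Bhlhe41 (1.21). Tmem119 then differed by 0.18 and Golm1 by 0.59, both under 2-fold. Without ad-MG replicate 3 alone, Tmem119 differed by 0.97 and lost its call.

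**Figure D2:**
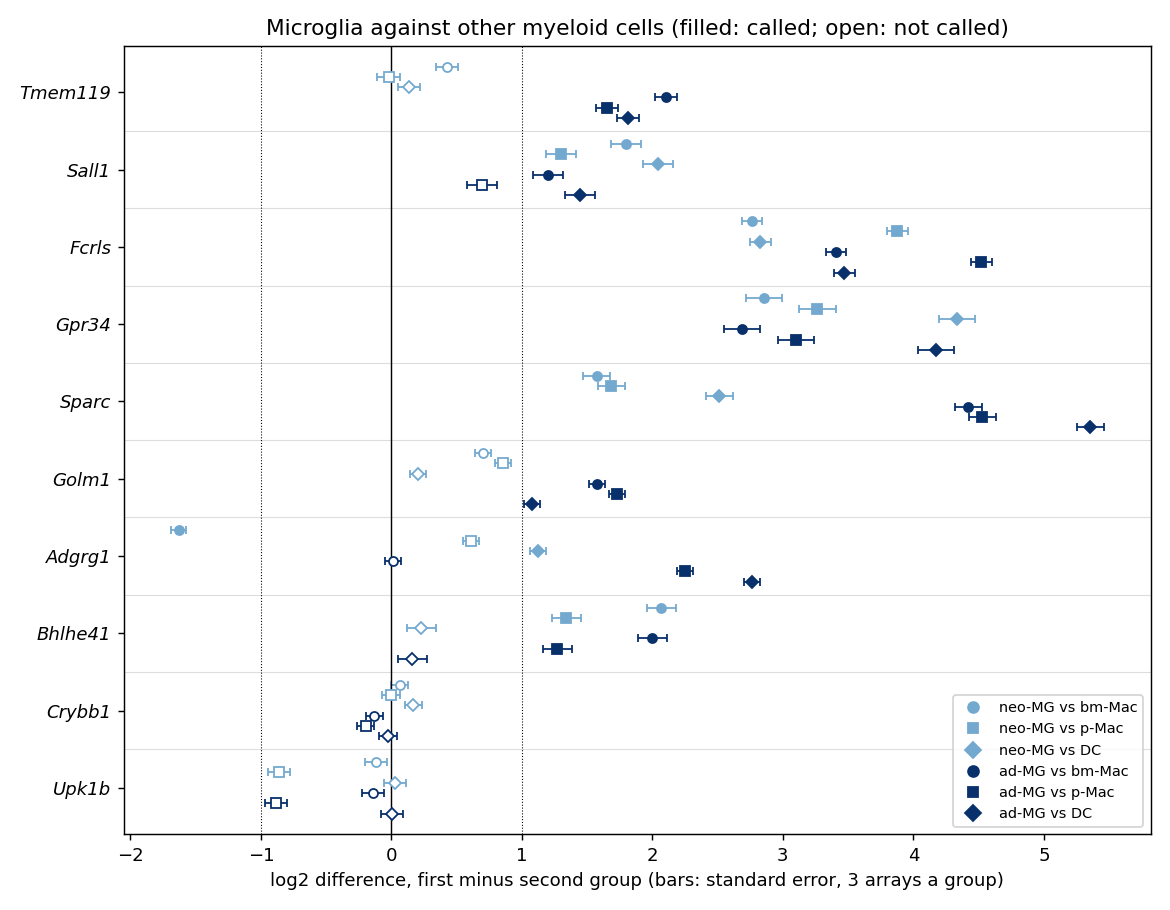
Log2 difference of each gene between neo-MG or ad-MG and each other myeloid group, with its standard error, filled where called and open where not. Fcrls, Gpr34 and Sparc lie right of the dotted line at 1 in all 6 comparisons, while Crybb1 stays between -0.20 and 0.17.

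Single comparisons, which share the neo-MG or ad-MG arrays, differed by gene. Against bm-Mac, neo-MG had 5 genes called higher and 1 lower, where 2.1% of all genes were called higher, 3.12% lower and 5.23% in either direction. Gpr34 was higher by 2.85, Fcrls by 2.76, Bhlhe41 by 2.07, Sall1 by 1.80 and Sparc by 1.57, and Adgrg1 was lower by 1.63 ± 0.0607 (SE; limma adjusted p = 1.76e-17). Against p-Mac, 5 genes were called higher in neo-MG, where 6.02% of genes were called higher, 3.1% lower and 9.12% either way: Fcrls (3.88), Gpr34 (3.26), Sparc (1.68), Bhlhe41 (1.34) and Sall1 (1.30). Tmem119 differed from p-Mac by -0.02, with a 95% interval of the difference that lay within -0.20 to 0.16. With each array centred on its median it differed by 0.19 (limma adjusted p = 0.0817), outside that interval, which does not cover the choice of normalization. Golm1 differed by 0.85, and by 1.06 when each array was centred on its median, which then passed 2-fold. Upk1b differed by -0.86 (limma adjusted p = 1.55e-09), under 2-fold. Against DC, 5 genes were called higher, where 4.17% of genes were called higher, 3.96% lower and 8.12% either way: Gpr34 (4.34), Fcrls (2.83), Sparc (2.51), Sall1 (2.05) and Adgrg1 (1.12). Bhlhe41 differed from DC by 0.23 (limma adjusted p = 0.106).

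In ad-MG, 7 genes were called higher and 0 lower against each of bm-Mac, p-Mac and DC, where 8.95%, 10.2% and 9.25% of all genes were called. The shares called higher were 5.38%, 7.5% and 6.13%, and those called lower 3.58%, 2.74% and 3.12%. Sparc was higher by 4.42, 4.53 and 5.36 in that order, Fcrls by 3.41, 4.52 and 3.47, and Gpr34 by 2.6879, 3.0999 and 4.172. Tmem119 was higher by 2.10, 1.65 and 1.81. Golm1 was higher by 1.57, 1.73 and 1.08, the last of which became 0.99 and lost its call after centring the arrays. Bhlhe41 was called against bm-Mac (2.00) and p-Mac (1.27) but differed from DC by 0.16. Adgrg1 was called against p-Mac (2.25) and DC (2.76) and differed from bm-Mac by 0.01. Sall1 was called against bm-Mac (1.20) and DC (1.44), and its difference from p-Mac was 0.70. The fibroblast and meninges genes moved with these results, with 14 of 16 called higher in ad-MG against each of the 3 groups. Their part in the differences was not tested.

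Neonatal and adult microglia were compared to ask how the genes vary with age. Of the 10 genes, 3 were lower in neo-MG and 0 higher, where 4.43% of all genes were called lower, 1.28% higher and 5.71% in either direction. Sparc was lower by 2.85 ± 0.103 (SE), or 7.19-fold, with a limma adjusted p of 6.17e-18. Tmem119 was lower by 1.68 ± 0.0861 (adjusted p = 1.03e-14, limma) and Adgrg1 by 1.64 ± 0.0607 (adjusted p = 1.04e-17, limma). Arrays of the 2 ages did not overlap in any of these 3 genes. Golm1 (-0.87), Fcrls (-0.64) and Sall1 (0.60) passed the p but stayed under 2-fold. Gpr34 differed by 0.17, Bhlhe41 by 0.07 and Upk1b by 0.02, each with a p over the threshold, while Crybb1 passed the p at 0.19, under 2-fold.

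Several other measures moved with age in the same arrays. Of the 16 fibroblast and meninges genes, 14 were lower in neo-MG, with a median of -2.59 and Ogn, a matrix proteoglycan, at -4.77. Slc6a13 (0.03) was the only one of the 16 at or above 0, and it and Fap were not called. Among 13 endothelial and mural genes, 5 were lower and 0 higher. Prl was lower by 5.06, while the other 6 pituitary genes were not called and the list's median was 0.03. The Y-linked gene Eif2s3y read 10.21, 10.05 and 10.14 in neo-MG and 4.76, 5.01 and 5.25 in ad-MG, while Xist averaged 12.12 and 13.18. The part of these in the changes of Sparc, Tmem119 and Adgrg1 was not tested.

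**Figure D3:**
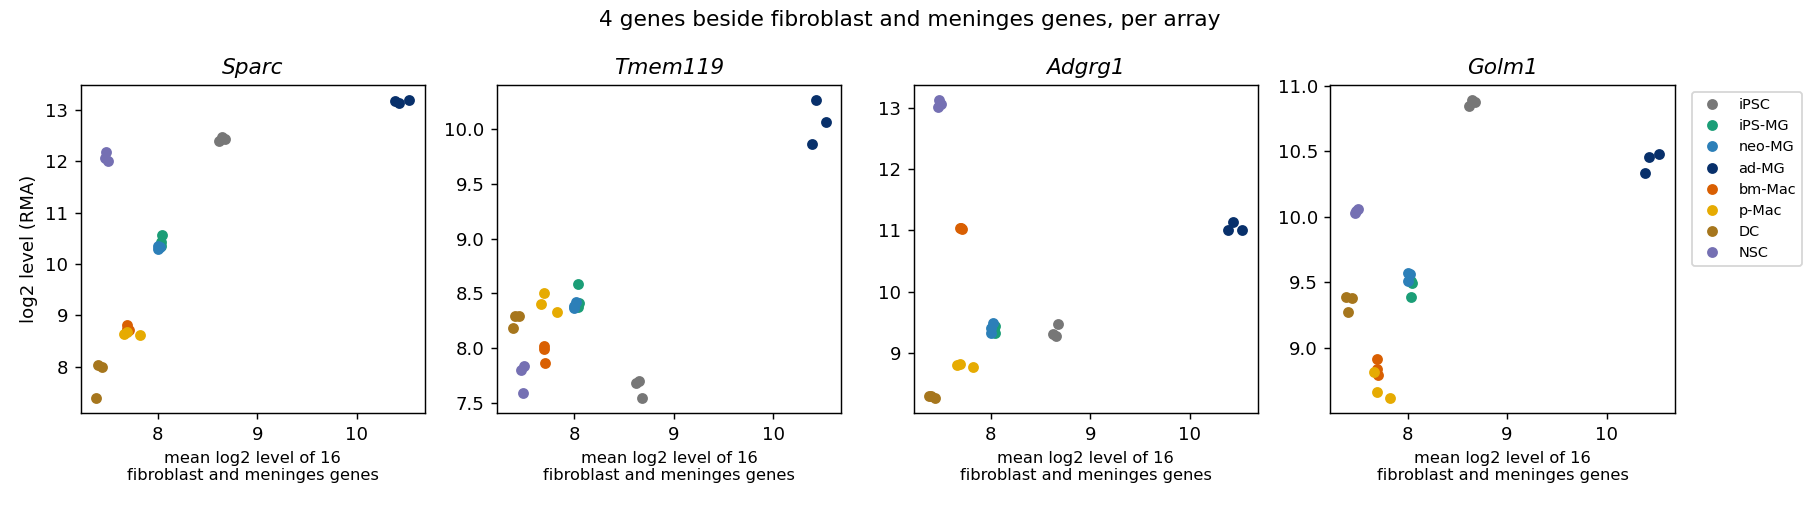
Log2 level of Sparc, Tmem119, Adgrg1 and Golm1 on each array plotted against the mean log2 level of the fibroblast and meninges list on that array, coloured by cell type. The 3 ad-MG arrays are the only ones with a list mean above 10.

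Derived microglia (iPS-MG) were compared with iPSC. Of the 10 genes, 3 were higher and 2 lower, where 10.4% of all genes were called higher, 11.8% lower and 22.2% in either direction. Fcrls was higher in iPS-MG by 6.38 ± 0.0794 (SE), or 83-fold (limma adjusted p = 6.23e-28), Gpr34 by 4.21 ± 0.139 (adjusted p = 1.52e-19, limma) and Bhlhe41 by 3.62 ± 0.112 (adjusted p = 3.92e-20, limma). Sparc fell by 1.98 and Golm1 fell by 1.41. Tmem119 passed the p at 0.82, under 2-fold. Sall1 differed by 0.05 and Adgrg1 by 0.04, both with a p over the threshold. In iPSC the fibroblast and meninges list had a mean of 8.65, above the 8.04 in iPS-MG, and 4 of its 16 genes were lower in iPS-MG. Its part in Sparc and Golm1 was not tested. Xist averaged 9.18 in iPSC and 12.15 in iPS-MG, and the Y-linked Eif2s3y 6.90 and 10.08. The source of these differences was not tested.

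Against neo-MG, iPS-MG had 0 of 10 genes called by limma, with none past 0.05 before adjustment either (0 of 10), where 0.0266% of all genes were called, all of them higher (0% lower). Differences lay between -0.11 for Upk1b and 0.13 for Sparc. Their 95% intervals reached from -0.39 for Gpr34 to 0.34 for Sparc, so that a 2-fold difference lay outside the interval of every one of the 10 genes. A p that missed the threshold does not show that the cells were alike. In Xist and Eif2s3y, iPS-MG (means 12.15 and 10.08) lay beside neo-MG (12.12 and 10.13), whereas iPSC read 9.18 and 6.90.

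Against ad-MG, 3 genes were lower in iPS-MG, where 4.28% of all genes were called lower, 1.2% higher and 5.48% either way: Sparc (-2.71), Adgrg1 (-1.66) and Tmem119 (-1.61). Golm1 differed by -0.96, and by -1.0009, past 2-fold, without ad-MG replicate 2. In the same comparison 14 of the 16 fibroblast and meninges genes were lower in iPS-MG, with a median of -2.63, and Prl was at -5.13. Their part in the 3 genes was not tested. Against bm-Mac, 5 genes were higher and 1 lower, where 2.31% were called higher, 3.1% lower and 5.41% either way. Fcrls was higher by 2.84, Gpr34 by 2.75, Bhlhe41 by 2.09, Sall1 by 1.86 and Sparc by 1.71, and Adgrg1 was lower by 1.65. These comparisons share the iPS-MG arrays.

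**Figure D4:**
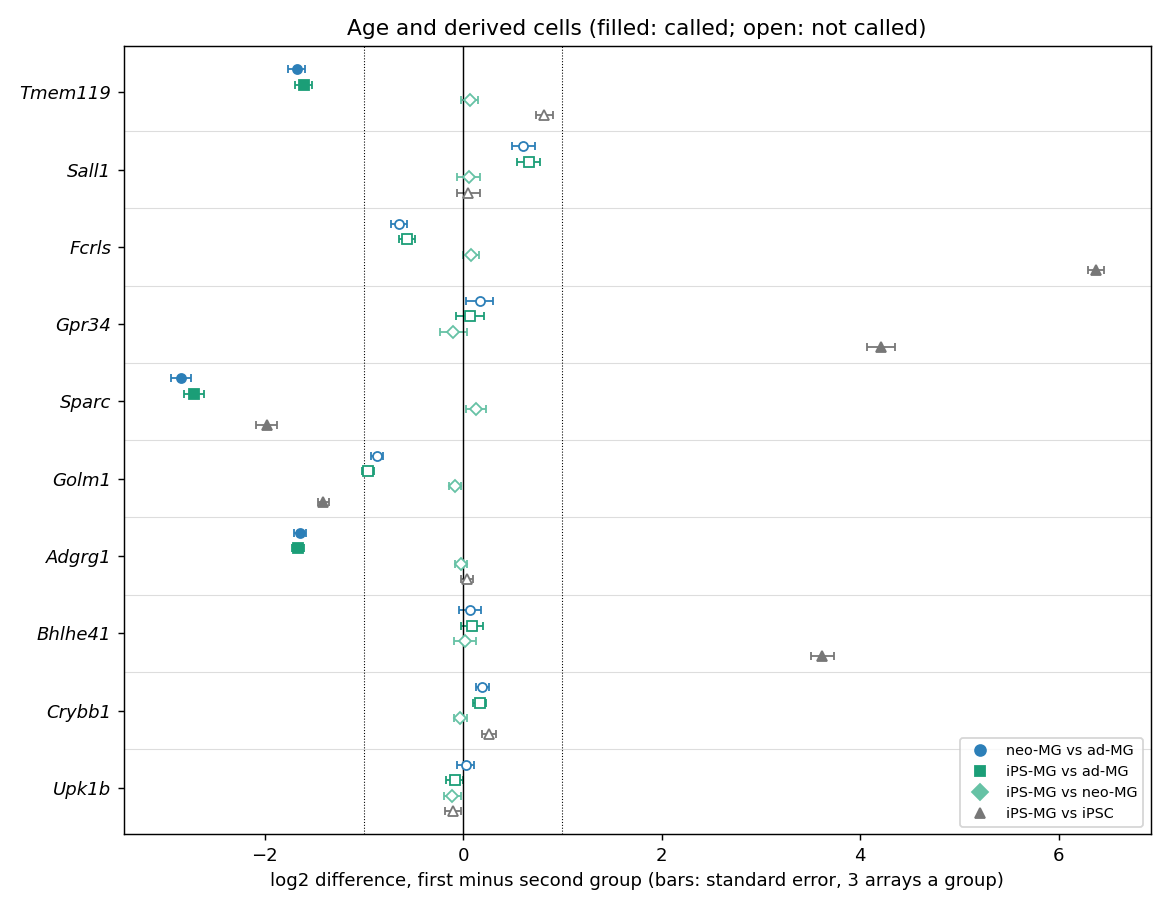
Log2 difference of each gene, with its standard error, for neo-MG against ad-MG and for iPS-MG against ad-MG, neo-MG or iPSC, filled where called and open where not. Between iPS-MG and neo-MG all 10 genes lie between -0.11 and 0.13, and against iPSC Fcrls lies at 6.38.

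Neural stem cells lay at least 2-fold above neonatal microglia for 2 genes, while Golm1 was lower in neo-MG by 0.49, under 2-fold. Against NSC, 3 of 10 genes were higher and 2 lower in neo-MG, where 10.5% of genes were called higher, 8.72% lower and 19.2% either way, with Fcrls at 6.49, Gpr34 at 4.24, Bhlhe41 at 4.23, Sparc at -1.76 and Adgrg1 at -3.66. Sall1 differed from NSC by 0.09 (limma adjusted p = 0.538). In ad-MG, 5 genes were higher and 1 lower, where 11% were called higher, 7.63% lower and 18.6% either way. Fcrls was higher by 7.14, or 141-fold, Bhlhe41 by 4.16, Gpr34 by 4.07, Tmem119 by 2.32 and Sparc by 1.08, and Adgrg1 was lower by 2.02.

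Other genes known from microglia gave a wider view. Of 44 listed, 38 were measured, P2ry12 and Cx3cr1 among them. They too were chosen with earlier results of these data known, so their counts are a description. In primary microglia against the other myeloid cells 15 were called higher and 0 lower, with a median of 0.69, beside 3.2% of all genes called higher and a median of -0.08 over them. Without ad-MG, 14 were higher and 0 lower. Hpgd, an enzyme that breaks down prostaglandins, was highest at 3.12, followed by Gas6, a bridging ligand of TAM receptors, at 2.80. By single group, neo-MG had 10 higher and 0 lower against bm-Mac (median 0.41), beside 2.1% and 3.12% of all genes. Against p-Mac it had 9 higher and 1 lower, Lpcat2 (-1.05), with a median of 0.27, beside 6.02% and 3.1%. Against DC it had 20 and 0, with a median of 1.06, beside 4.17% and 3.96%. In ad-MG, 12, 14 and 22 were higher and 0 lower against bm-Mac, p-Mac and DC, beside 5.38%, 7.5% and 6.13% of all genes higher. Between neo-MG and ad-MG, 6 were lower and 1, Liph, was higher, beside 4.43% and 1.28% of all genes. Nav3 was lower by 2.25 and Cx3cr1 by 2.10. In iPS-MG against iPSC, 29 were higher and 0 lower, with a median of 2.34, beside 10.4% and 11.8% of all genes and a median of 0.02, and against neo-MG 0 of 38 were called by limma.

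Transforming growth factor beta is a signal on which microglia depend, and 19 of 20 listed genes of its pathway were measured. In the mean of neo-MG and ad-MG against the other myeloid cells, 3 were higher and 0 lower, beside 3.2% and 2.07% of all genes: the ligand Tgfb3 (1.76), the integrin chain Itgb8 (1.34) and the signal transducer Smad3 (1.17). Tgfb3 was high in ad-MG only, at a mean of 10.65, against 7.63 in neo-MG, 7.92 in bm-Mac, 7.36 in p-Mac and 6.86 in DC. Without ad-MG, 1 of the 19 was higher, Smad3 (1.02), and 4 were lower, beside 2.83% and 2.62% of all genes: the latent binding protein Ltbp1 (-1.93), the induced matrix protein Tgfbi (-1.78), the coreceptor Tgfbr3 (-1.47) and the ligand Tgfb2 (-1.05). Tgfb2 averaged 7.53 in neo-MG, above 7.21 in bm-Mac and 6.96 in DC, and was lower only than p-Mac at 11.58. Smad3 averaged 10.84 in neo-MG, 10.41 in bm-Mac and 10.38 in p-Mac, but 8.66 in DC. Against bm-Mac, neo-MG had 0 higher and 2 lower, beside 2.1% and 3.12% of all genes. It had 0 and 4 against p-Mac, beside 6.02% and 3.1%, and 1 and 2 against DC, beside 4.17% and 3.96%. In ad-MG, 5 were higher and 1 lower against bm-Mac, beside 5.38% and 3.58%. The counts in ad-MG were 3 and 4 against p-Mac, beside 7.5% and 2.74%, and 5 and 0 against DC, beside 6.13% and 3.12%. In neo-MG against ad-MG, 7 were lower and 0 higher, beside 4.43% and 1.28% of all genes, led by Tgfb3 (-3.02), Tgfb2 (-2.29), Tgfbi (-2.17) and Ltbp1 (-2.14). The fibroblast and meninges genes moved with that comparison (14 of 16 lower), and their part was not tested. In iPS-MG against iPSC, the ligand Tgfb1 (3.87), Nrros, which anchors it on microglia (3.59), the receptor Tgfbr1 (1.93) and Smad3 (1.01) were higher, beside 10.4% of all genes, and Smad7 (-1.62), Ltbp1 (-1.26) and Tgfb3 (-1.02) were lower, beside 11.8%.

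Close relatives of the genes did not always follow them. Golm2, the paralog of Golm1, was higher in primary microglia by 2.40 and lower in neo-MG than in ad-MG by 3.45. Bhlhe40, the paralog of Bhlhe41, was lower in the mean of primary microglia by 1.44 and lower in neo-MG than in ad-MG by 1.90. Against bm-Mac it was higher in ad-MG by 0.94 and lower in neo-MG by 0.96, both under 2-fold. Fcrl1, a relative of Fcrls, was higher in primary microglia by 1.86 and in iPS-MG over iPSC by 3.01. Sall4, a pluripotency factor related to Sall1, fell by 4.18 from iPSC to iPS-MG, while Sall1 differed by 0.05.

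On the chromosome, Cd5l, a secreted scavenger receptor protein, is next to Fcrls in the RefSeq gene order. Over the 8 group means the correlation of Fcrls and Cd5l was 0.94, and Cd5l was higher in primary microglia by 2.13. This was the highest correlation among all neighbours of the 10 genes, and the lowest was -0.92 for Upk1b and B4galt4. Kirrel, on the other side of Fcrls, was at -0.39. Cd5l averaged 12.83 in neo-MG and 12.71 in ad-MG, beside 12.19 in bm-Mac, 11.42 in DC and 8.30 in p-Mac. Adgrg3, next to Adgrg1, was lower in primary microglia by 1.26. It averaged 7.80 in neo-MG and 7.88 in ad-MG, beside 8.03 in p-Mac, 9.53 in DC and 9.74 in bm-Mac. Cryba4, the crystallin gene beside Crybb1, averaged 8.38 in iPS-MG and 8.26 in neo-MG and 7.25 in iPSC. Correlation over 8 group means is a description, and the genes of a pair were read from the same arrays with the same normalization.

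**Figure D5:**
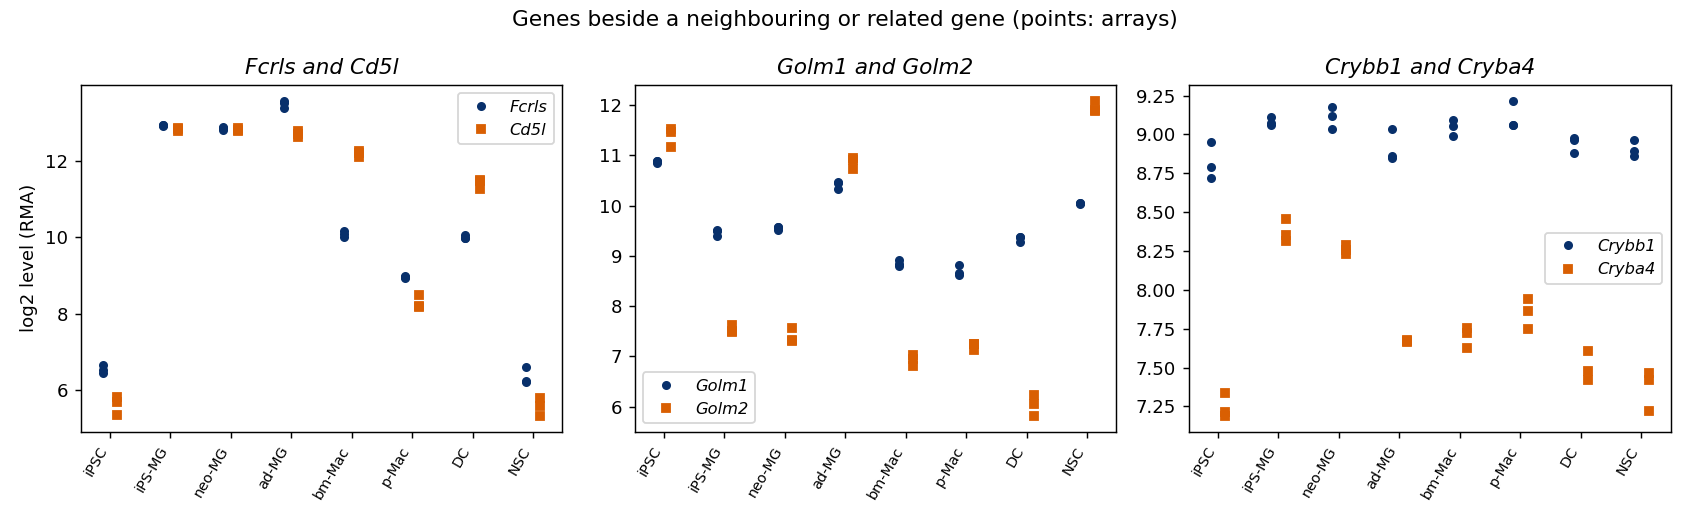
Log2 level on every array, by cell type, of Fcrls with its neighbour Cd5l, Golm1 with its paralog Golm2 and Crybb1 with its neighbour Cryba4. Cryba4 averages 8.38 in iPS-MG and 7.25 in iPSC, while Crybb1 averages 9.08 and 8.82.

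Among the 10 genes themselves, the group means of Fcrls and Bhlhe41 (r = 0.92), Fcrls and Gpr34 (0.91) and Sparc and Golm1 (0.88) ran most alike. Over all 24 arrays in 8 cell types, the genes most like each were found by Pearson's r among genes with a span of at least 1. For Tmem119 they were Cdh5 and Inmt (both 0.949), of which Cdh5, the cadherin of endothelium, averaged 10.80 in ad-MG and 7.35 to 8.16 elsewhere. Not all endothelial genes did so. Of the 13 endothelial and mural genes, 5 were higher in ad-MG than in each of bm-Mac, p-Mac and DC, and 1, 0 and 3 lower. The shares of all genes were 5.38%, 7.5% and 6.13% higher and 3.58%, 2.74% and 3.12% lower. Pecam1 was lower in ad-MG than in bm-Mac by 1.22 and than in DC by 1.94. Sall1 was closest to Fasn, the fatty acid synthase (0.955), Fcrls to Havcr2 (0.982), Gpr34 to Ccr1l1 (0.984), Sparc to Gpx8 (0.97) and Golm1 to Atp1b1 (0.968). For Adgrg1 it was Csgalnact1 (0.924), for Bhlhe41 Tent5c (0.987), for Crybb1 Cxcr3 (0.843) and for Upk1b Mst1r (0.961). Differences between 8 cell types carry these values, not 24 independent points.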

How the data were processed

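RNA from 24 samples in 8 cell types was measured on arrays. Per the labels' protocols, 200 ng of total RNA per sample was extracted with miRNeasy. The deposited values are log2 levels of 35556 probesets, and the submitters' processing notes name RMA and Partek. Base 2 was taken from the range of the values (3.14 to 14.43), and the chip definition is not given in the sources used here. Probesets with 1 gene symbol in the platform annotation were kept (21218; 1881 had several and 12457 none), and for genes with more than 1 the highest mean was taken.

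limma 3.58.1 (R 4.3.3) was fitted over 18820 genes, with Benjamini-Hochberg adjustment. All 24 arrays entered the fit behind each pair of cell types, and 15 arrays the one of primary microglia against other myeloid cells. Calls need an adjusted p under 0.05 and a log2 difference of at least 1, the fits were tested on simulated data, and ± gives the SE of a difference or the SD of a level. Beside the 10 genes, the rule named the 2 most similar genes to each, of which the first is mostly given, the genes on either side in RefSeq order, and the highest and lowest of each list. Other genes of the lists and relatives were picked after their values were seen. The genes and lists were chosen with earlier results of these data known. Alternatives were median centring, a second quantile normalization, a filter on dim genes, means over probesets, limma-trend, fits to only the groups compared or to all arrays, the replicate number as a block, and leaving out each array. The number of arrays limits the precision. No scanner values or batches were used.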

Additional observations from a re-analysis of the deposited data

How the results depend on the processing

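Under the alternatives run, 0 of the 28 counts of genes called (all genes or the 10 described) moved by more than 1.5 times. Of 1906 values of single genes, 1900 kept their call or their lack of one. The 6 others concerned Golm1 (1.06 in neo-MG against p-Mac and 0.99 in ad-MG against DC after centring, 0.59 in primary microglia without ad-MG, -1.0009 in iPS-MG against ad-MG without ad-MG replicate 2) and Tmem119 in primary microglia (0.18 without ad-MG, 0.97 without ad-MG replicate 3). Direction was checked only for called values, and none of those reversed. Some uncalled values changed sign, such as Tmem119 in neo-MG against p-Mac, from -0.02 to 0.19 after centring. Several alternatives could not change the log2 differences of the 10 genes, each read from 1 probeset. These were limma-trend, the replicate block, the filter on dim genes, means over probesets, and fits to only the groups compared or to all arrays. There a call could change only through the p, so those values say little about stability. Leaving out each array gave 6 to 7 of the 10 genes called in primary microglia and 3 to 4 in iPS-MG against ad-MG. Centring moved the median of all genes by 0.21 in neo-MG against p-Mac, where the share of higher calls went from 66% to 79.4%, by 0.15 in ad-MG against p-Mac, by 0.12 in iPS-MG against bm-Mac, where it went from 42.6% to 53.6%, and by 0.10 in neo-MG against bm-Mac. The filter on dim genes removed Upk1b.

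With the replicate number as a block, 7 of the 10 genes were called in primary microglia, 6 in neo-MG against bm-Mac and 3 in neo-MG against ad-MG, as without it. Those calls could not have changed through the fold, which a balanced block leaves as it is, and all genes past 2-fold passed the p, so the block says little about stability. The genes past the adjusted p alone went from 7772 to 7801 in neo-MG against bm-Mac and from 13279 to 13216 in primary microglia. Same-numbered arrays correlated at -0.26 to 0.25 in their deviations, 0 of 28 pairs of groups had all 3 correlations over 0.1, and the samples share only a number.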
